A study of Mus musculus with 12 samples.

Results

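The genes described here are 10 of the 33246 genes in a table of read counts from mouse ear fibroblasts. They encode mitotic cyclins, mitotic kinases and markers of proliferating cells, and were taken as a list of names: Ccna2, Ccnb1, Ccnb2, Cdk1, Plk1, Aurka, Aurkb, Bub1, Mki67 and Top2a. Each name matched 1 gene in the table, and all 10 passed the filter on low counts.

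The study asked whether stress relaxation of the substrate changes gene expression, and whether this depends on substrate stiffness. Primary ear fibroblasts of 1-month-old mice were used at passage 2, and 500000 cells were seeded on alginate hydrogels and collected after 48 h. Messenger RNA was selected by its poly(A) tail and sequenced in 12 samples, 3 in each of 4 groups: 2 kPa Elastic, 20 kPa Elastic, 2 kPa Viscoelastic and 20 kPa Viscoelastic. Per the study's methods the mice were C57BL/6 of both sexes, with a Tau-EGFP reporter strain as a further source of cells, and the labels do not say which animals gave which sample. Elastic gels were crosslinked covalently and viscoelastic gels ionically, so that the chemistry of the crosslinks and the relaxation of the gel cannot be told apart. The amount of crosslinker set the stiffness. The study also made fast-relaxing viscoelastic gels, and per its text the viscoelastic gels used for RNA-seq were the slow-relaxing ones. All 4 groups were grown in the same medium with serum, and there was no group on plastic or tissue.

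Entry into mitosis is driven by Cdk1, a kinase that is active only when bound to a cyclin. Cyclin A2 acts from S phase into early mitosis, and cyclins B1 and B2 carry the cell through prophase to metaphase, after which the anaphase-promoting complex marks the cyclins for breakdown. Polo-like and Aurora kinases build the spindle and separate the chromosomes, and Bub1 takes part in the checkpoint that holds anaphase back until the chromosomes are attached. The messages of these genes rise through S phase and G2 and fall in G1. In bulk RNA fewer cells in G2 and mitosis and less of the message per cell cannot be told apart.

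Many promoters of this kind carry a pair of elements. One is a CCAAT box, which binds the trimeric factor NF-Y. The other is the cell cycle genes homology region (CHR), through which the MuvB complexes repress the gene in quiescent cells and, with B-Myb and FoxM1, activate it in G2. RefSeq promoter windows of 300 bases (250 before to 50 after the transcription start, build GRCm38.p6) were matched for 8 of the 10 genes; Ccna2 and Aurkb had no match. The windows of 5 genes are shown from position -150 to 30, because in this range they hold CCAAT together with TTTGAA or TTCGAA, and because Bub1, Mki67 and Top2a had the lowest ratios between gel types at 20 kPa. Ccnb1, Plk1 and Aurka hold the CHR in this range only as TTTAAA. Sequences run 5′ to 3′ on the gene's own strand, and capitals mark CCAAT (read as ATTGG on the other strand) and the CHR in its forms TTTGAA (read as TTCAAA on the other strand) or, where present, TTCGAA. A further form that was searched is TTTAAA. All 5 lie on the minus strand, at chr9:70421525-70421704 (Ccnb2), chr10:69352883-69353062 (Cdk1), chr2:127831830-127832009 (Bub1), chr7:135716350-135716529 (Mki67) and chr11:99024160-99024339 (Top2a).
Ccnb2: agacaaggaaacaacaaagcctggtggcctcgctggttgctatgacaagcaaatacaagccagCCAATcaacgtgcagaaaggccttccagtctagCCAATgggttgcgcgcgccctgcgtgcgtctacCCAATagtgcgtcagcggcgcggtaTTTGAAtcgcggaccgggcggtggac
Cdk1: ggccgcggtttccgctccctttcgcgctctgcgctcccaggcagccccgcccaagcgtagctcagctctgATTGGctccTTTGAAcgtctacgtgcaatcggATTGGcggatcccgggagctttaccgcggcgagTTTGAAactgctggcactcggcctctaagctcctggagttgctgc
Bub1: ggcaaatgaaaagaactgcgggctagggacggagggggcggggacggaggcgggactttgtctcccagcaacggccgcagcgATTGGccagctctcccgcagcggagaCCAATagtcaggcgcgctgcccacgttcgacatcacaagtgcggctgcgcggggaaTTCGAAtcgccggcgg
Mki67: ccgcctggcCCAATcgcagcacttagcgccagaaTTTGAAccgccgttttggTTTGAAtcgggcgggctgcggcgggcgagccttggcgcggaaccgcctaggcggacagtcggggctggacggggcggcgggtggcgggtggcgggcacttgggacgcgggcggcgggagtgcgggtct
Top2a: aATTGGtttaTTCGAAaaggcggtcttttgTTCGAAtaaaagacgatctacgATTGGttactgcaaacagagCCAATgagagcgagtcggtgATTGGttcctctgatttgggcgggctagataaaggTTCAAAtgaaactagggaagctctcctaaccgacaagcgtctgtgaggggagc

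Over the whole 300-base windows, CCAAT was present on either strand in 8 of the 8 genes, against 37.4% of 32851 mouse promoter windows. It was present at least 2 times in 7 of the 8, against 11.7% of all windows. TTTGAA was found in 6 of the 8 genes (17.9% of all windows), TTCGAA in 2 (1.56%) and TTTAAA in 3 (13.2%), and at least 1 of these 3 forms in all 8 (28.8%). No match overlapped another. In Ccnb2 the CCAAT boxes began at -87, -54 and -21 and TTTGAA at -167 and 5. In Cdk1 TTTGAA began at -71 and -15, and ATTGG at -208, -80 and -48. Plk1 and Aurka also held TTTGAA, starting at 31 and 33, outside the range shown for the other genes. Ccnb1 held CCAAT at -99 and -67 and TTTAAA at -42. These matches describe the letters of the windows, and binding was not measured in the counts.

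**Figure D1:**
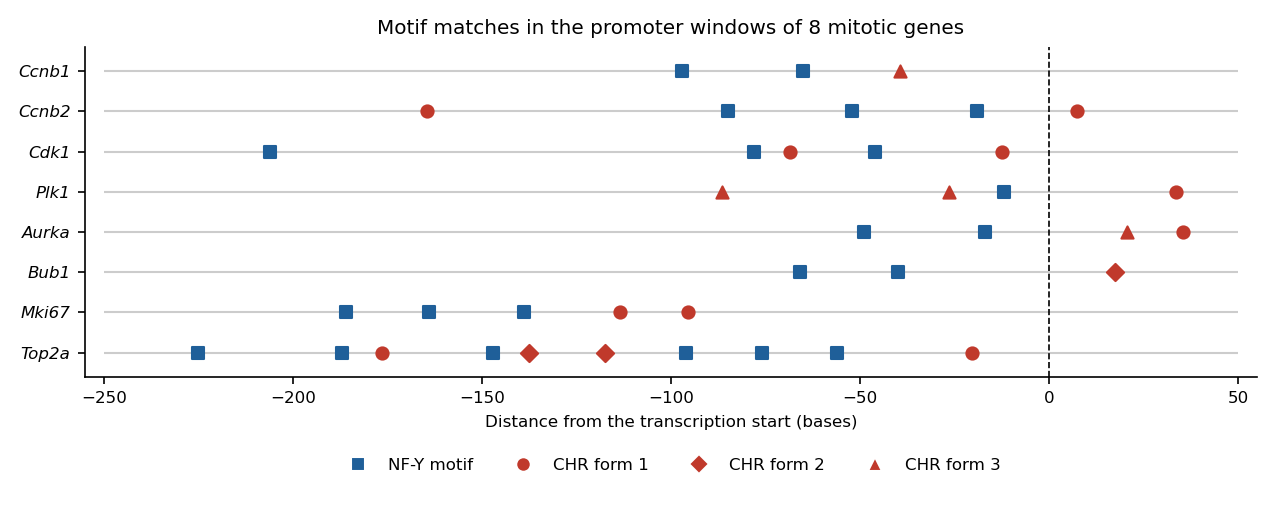
Position of motif matches in the promoter windows of 8 mitotic genes, as the distance in bases from the transcription start (dashed line). Squares are CCAAT boxes (NF-Y motif), circles are the CHR form TTTGAA, diamonds the form TTCGAA and triangles the form TTTAAA. All 8 windows hold at least 1 NF-Y motif and at least 1 CHR form.

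The libraries held between 36626221 and 43612804 counts, and 14542 genes were tested. Mitochondrial genes took 1.773% to 3.341% of the counts. Defining markers of fibroblasts were abundant as a sum, with 9 genes summed to 23505.5 to 25416.4 CPM (read counts scaled to a common library size) in 20 kPa Elastic and 26717 to 28835.3 in 20 kPa Viscoelastic, which did not overlap, and to 25059.5 to 26136.8 and 24309.9 to 28044.3 at 2 kPa, which did. Most of this sum came from Col1a1, Col1a2, Col3a1 and Vim, while Dpt had 16 to 95.5 CPM. At 20 kPa the genes disagreed, with mean Thy1 (280.2 against 193.6 CPM) and Pdgfrb (289.9 against 268.6) lower on viscoelastic gels. The other genes of the list had higher means on them. Cartilage markers were abundant too, with the sum of Acan, Col2a1, Col9a1 and Matn1 at 3942.5 to 5083.1 CPM in the 2 kPa Elastic group, 3539.4 to 3699.5 in 20 kPa Elastic, 3745 to 4797.7 in 2 kPa Viscoelastic and 3690 to 4998.1 in 20 kPa Viscoelastic. Col2a1, Acan and Col9a1 made up this sum, with Matn1 at no more than 0.187 CPM. The range of 20 kPa Elastic, the group in which the mitotic genes were highest, lay below those of both 2-kPa groups. It overlapped that of 20 kPa Viscoelastic only between 3690 and 3699.5 CPM. At 20 kPa mean Col2a1 (2416.7 on elastic against 3023.2 CPM on viscoelastic gels) and Col9a1 (183.1 against 333.5) were higher on viscoelastic gels, and Acan was not (1028.8 against 1020). The part of cartilage cells in the results was not tested. Summed keratinocyte markers were low but higher on viscoelastic gels, at 14.1 to 17.9 against 19.9 to 23.3 CPM at 2 kPa and 18.7 to 21.5 against 21.7 to 23 at 20 kPa. Trp63 made up most of this sum, with means of 12.7 against 18.2 CPM at 2 kPa and 16.9 against 18.1 at 20 kPa. No other gene of the list had a higher mean on viscoelastic gels at 2 kPa, where Krt5, Krt14, Krt10, Epcam and Cdh1 were lower. At 20 kPa Cdh1 was lower (0.269 against 0.136 CPM) and the other genes higher. Summed endothelial markers were higher on viscoelastic gels at 2 kPa (1.98 to 2.2 against 2.88 to 3.51 CPM) and lower on them at 20 kPa (2.99 to 3.27 against 2.2 to 2.78). At 2 kPa the genes disagreed. Mean Kdr (0.541 on elastic against 0.981 CPM on viscoelastic gels) and Tek (0.828 against 1.71) were higher. Mean Pecam1 (0.423 against 0.293 CPM) and Cdh5 (0.297 against 0.19) were lower. At 20 kPa every gene of the list had a lower mean on viscoelastic gels. The part of these cells in the results was not tested. Leukocyte, melanocyte and muscle markers stayed at or below 9.01, 1.26 and 0.384 CPM, with the melanocyte gene Tyr at 0. The study describes its RNA-seq samples as biological replicates, and the labels do not say which cultures or animals they came from, so the p-values measure the spread between these samples.

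One library stood apart for the mitotic genes. Replicate 2 of 20 kPa Viscoelastic was the lowest of its group for all 10 genes and the lowest of all 12 samples for 9, and it had the highest mitochondrial share (3.341%). At the other end, replicate 3 of 20 kPa Elastic was the highest of all samples for 9 of the 10 genes. Summed over the 10 genes, the levels were 1308.6, 1321.4 and 1232.6 CPM on 2-kPa elastic gels, 1549.3, 1520.2 and 1744.5 on 20-kPa elastic gels, 1047, 927.4 and 946 on 2-kPa viscoelastic gels, and 1088.6, 829.2 and 1097.3 on 20-kPa viscoelastic gels. Every elastic sample was therefore above every viscoelastic sample in this sum.

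Per kilobase of exon, Mki67 and Top2a were the most abundant members, and Bub1, Aurkb and Ccnb1 the least. Averaged over the 12 samples, the levels were 42.5 CPM per kb for Mki67, 41.1 for Top2a, 29.5 for Ccnb2, 24.2 for Plk1, 22.5 for Ccna2, 17 for Cdk1, 13.5 for Aurka, 10.1 for Ccnb1, 9.55 for Aurkb and 9.32 for Bub1. Even Bub1 was above 69.3% of the tested genes with a known length. The order was nearly the same in the 4 groups. Mki67 and Top2a overlapped each other in all of them, and so did Plk1 and Ccna2, Ccnb1 and its lower neighbour, and Aurkb and Bub1. Ccnb2 stood between the first and the second pair without overlap in 3 groups, and its range met those of Top2a and Plk1 on 20-kPa viscoelastic gels.

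Stress relaxation went with lower mitotic messages at both stiffnesses. On 20-kPa gels all 10 genes were down-regulated on the viscoelastic substrate (edgeR, adjusted p under 0.05), where 16.1% of the 14542 tested genes were called lower. On 2-kPa gels 6 of the 10 were down-regulated, against a background of 11.1% called lower. The elastic samples were all above the viscoelastic samples for each of the 10 genes at either stiffness, a separation in this direction that 23.7% of tested genes showed at 20 kPa and 19.7% at 2 kPa. The median log2 ratio over the members was -0.6 at 20 kPa and -0.33 at 2 kPa, beside 0.02 and 0 for all tested genes. The paper also assayed proliferation by EdU labeling, 48 h after seeding. For viscoelastic gels as a whole it reports raised proliferation at 2 kPa, opposite in direction to these messages from slow-relaxing gels. At 20 kPa it reports no significant difference. With stiffness it reports a rise among elastic gels, the direction that the messages took there. The messages alone do not measure proliferation, and the cause of the difference was not tested.

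Stiffness went with higher mitotic messages on elastic gels. From 2 to 20 kPa, 7 of the 10 genes were up-regulated on the elastic substrate, where 6.81% of tested genes were called higher. For all 10 the 20-kPa samples lay above the 2-kPa samples, as they did for 17.8% of tested genes. Their median log2 ratio was 0.34, beside -0.01 over all genes. On viscoelastic gels none of the 10 was called (edgeR), none had an unadjusted p under 0.05, DESeq2 called none, and the samples overlapped for all 10. There 1.58% of tested genes were called higher and 0.695% lower, and the groups separated for 13.6% with the stiff samples above and for 8.73% with the soft samples above. The comparisons share groups, since the 20 kPa Elastic samples enter both the ratio between gel types at 20 kPa and the ratio between stiffnesses on elastic gels.

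**Figure D2:**
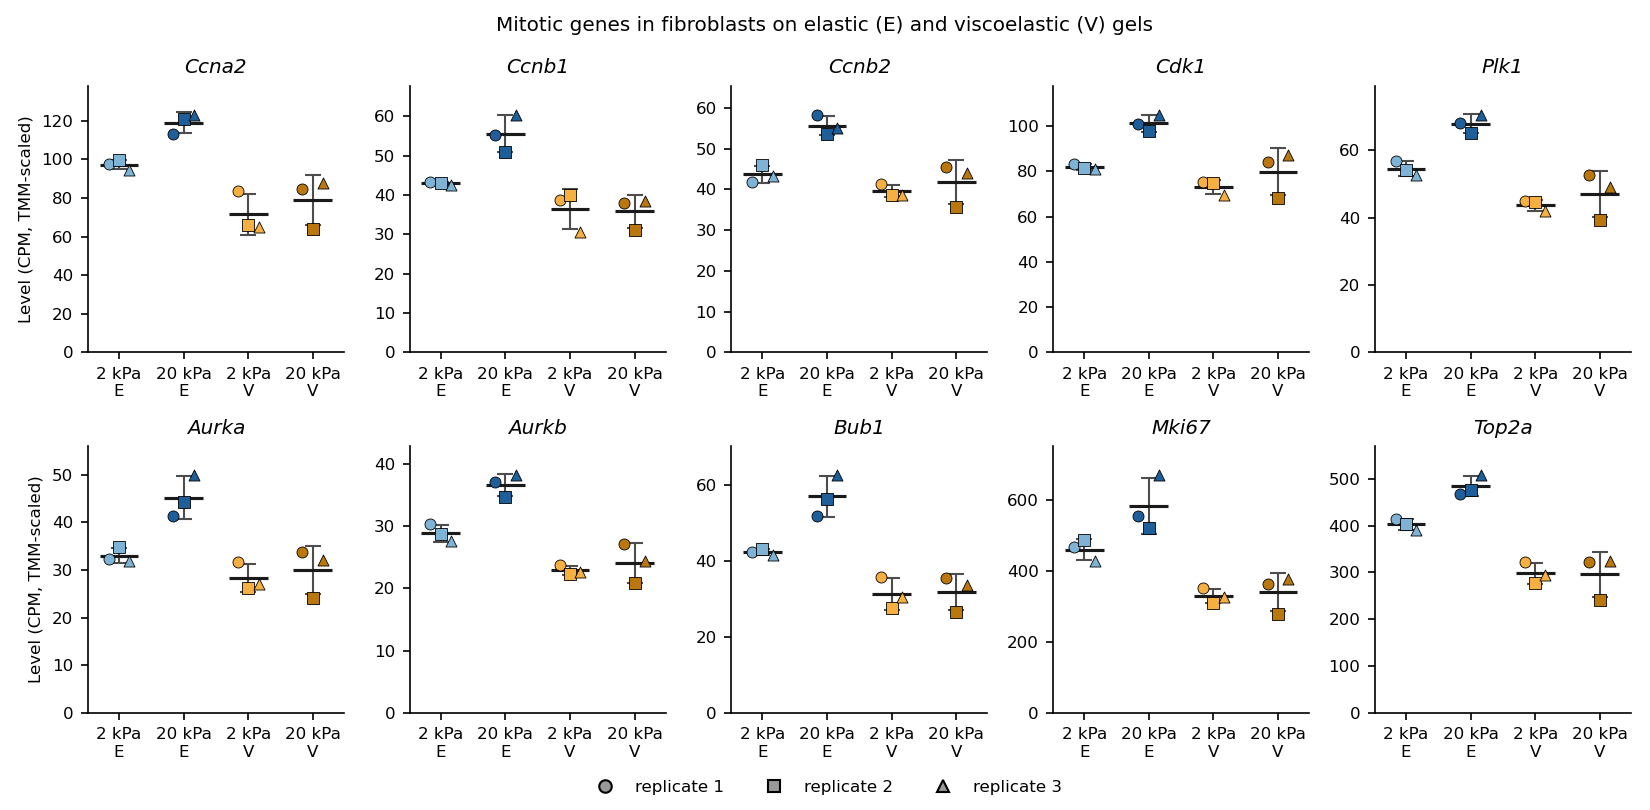
Level of each gene in every sample, in TMM-scaled CPM on an axis from 0, with points for the 3 samples of a group (marker shape gives the replicate number), a line for the mean and a bar for the SD. For all 10 genes the 20 kPa Elastic group (dark blue) is the highest, and the 2 viscoelastic groups (orange and brown) overlap each other.

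Among the cyclins, Ccna2 (chr3:36564865-36572150, minus strand, mm10) encodes cyclin A2. Its level was 97.6, 99.6 and 94.6 CPM on 2-kPa elastic gels and 113.1, 120.7 and 123.2 CPM on 20-kPa elastic gels. It was 83.8, 66.1 and 65 CPM on 2-kPa viscoelastic gels and 84.7, 63.9 and 87.9 CPM on 20-kPa viscoelastic gels. All elastic samples were above all viscoelastic ones, and replicate 1 at 2 kPa and replicates 1 and 3 at 20 kPa stood above the other viscoelastic samples. Ccna2 fell by 26.4% between gel types at 2 kPa (log2 ratio -0.44 ± 0.109 SE, adjusted p = 0.0107 by edgeR) and fell by 33.8% at 20 kPa (-0.59 ± 0.108, adjusted p = 0.000975). Its ratio of 1.22 between stiffnesses on elastic gels did not pass (adjusted p = 0.0885). A part of its exons, 510 bases or 12.49%, overlaps Exosc9 on the other strand, and the strand setting of the counting is not stated. Exosc9 itself had log2 ratios of 0.06 and 0.07 between gel types and 0.09 between stiffnesses on each gel, with adjusted p from 0.323 to 0.438.

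Ccnb1 (chr13:100778650-100786570, minus strand) encodes cyclin B1, the main partner of Cdk1 in mitosis. Its level was 43.4, 43.1 and 42.6 CPM on 2-kPa elastic gels and 55.3, 51 and 60.5 CPM at 20 kPa. It was 38.8, 39.9 and 30.7 CPM on 2-kPa viscoelastic gels and 38.1, 31.1 and 38.4 CPM at 20 kPa. The 2 stiffnesses thus separated on elastic gels and mixed on viscoelastic ones. Ccnb1 rose by a factor of 1.29 with stiffness on elastic gels (log2 ratio 0.37 ± 0.0979, edgeR adjusted p = 0.021), and its ratio on viscoelastic gels was 0.982. Between gel types it fell by 35.5% at 20 kPa (adjusted p = 0.000348), while the log2 ratio of -0.24 at 2 kPa did not pass (adjusted p = 0.104). A processed pseudogene of Ccnb1 had 3 to 9 counts per sample, against at least 1288 for the gene.

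Ccnb2 (chr9:70407692-70421547, minus strand) encodes cyclin B2. It was measured at 41.9, 46 and 43.2 CPM on 2-kPa elastic gels, and at 58.4, 53.7 and 55 CPM on those of 20 kPa. Viscoelastic samples had 41.3, 38.7 and 38.7 CPM at 2 kPa and 45.6, 35.7 and 44.1 CPM at 20 kPa. At 2 kPa the lowest elastic and the highest viscoelastic sample nearly met, at 41.9 and 41.3 CPM. Ccnb2 had the smallest difference between gel types at 2 kPa among the members (log2 ratio -0.14 ± 0.0795, edgeR adjusted p = 0.216), and it fell by 25% at 20 kPa (adjusted p = 0.00125). It rose 1.27-fold with stiffness on elastic gels (adjusted p = 0.00896), the lowest adjusted p of the 10 in that comparison.

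Cdk1 (chr10:69335146-69352938, minus strand) is the kinase that these cyclins activate. Its level was 83.3, 81.3 and 81.2 CPM on 2-kPa elastic gels and 101, 97.7 and 105.1 CPM at 20 kPa. On viscoelastic gels it was 75.2, 74.9 and 69.6 CPM at 2 kPa and 84.3, 68.3 and 87.1 CPM at 20 kPa. The SD over replicates was 1.16 CPM on soft elastic gels and 10.2 CPM on stiff viscoelastic gels, where replicate 2 was low. Cdk1 rose 1.24-fold with stiffness on elastic gels (log2 ratio 0.31 ± 0.0761, edgeR adjusted p = 0.0151). Between gel types at 20 kPa it fell by 21.1% (adjusted p = 0.00345), the smallest decrease of the 10, and at 2 kPa its log2 ratio of -0.16 did not pass (adjusted p = 0.149).

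The mitotic kinases behaved alike in direction. Plk1 (chr7:122159439-122169873, plus strand), a kinase needed for centrosome maturation and mitotic entry, had 56.9, 54 and 52.7 CPM on 2-kPa elastic gels and 68, 65 and 70.6 CPM at 20 kPa. It had 44.8, 44.6 and 41.9 CPM on 2-kPa viscoelastic gels and 52.5, 39.3 and 49.1 CPM at 20 kPa. The 4 groups separated everywhere but between the 2 viscoelastic ones. Plk1 fell by 19.8% between gel types at 2 kPa (edgeR adjusted p = 0.0156) and fell by 30.8% at 20 kPa (adjusted p = 0.000366), and it rose 1.24-fold with stiffness on elastic gels (adjusted p = 0.0206). Of its exons 156 bases (7.09%) overlap a gene model on the other strand that is not in the table.

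Aurka (chr2:172356190-172370535, minus strand) encodes the Aurora kinase of the spindle poles. It was at 32.4, 34.9 and 31.8 CPM on 2-kPa elastic gels and at 41.3, 44.3 and 50 CPM at 20 kPa. Viscoelastic samples gave 31.7, 26.3 and 27 CPM at 2 kPa and 33.8, 24.2 and 32 CPM at 20 kPa. At 2 kPa the nearest elastic and viscoelastic samples were 31.8 and 31.7 CPM. Aurka had the largest ratio to stiffness among the members on elastic gels, 1.37-fold (log2 ratio 0.45 ± 0.109, edgeR adjusted p = 0.0129). It fell by 33.6% between gel types at 20 kPa (adjusted p = 0.00105), and at 2 kPa its log2 ratio of -0.22 ± 0.111 did not pass (adjusted p = 0.173).

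Aurkb (chr11:69045647-69051664, plus strand) encodes the Aurora kinase of the chromosomal passenger complex, which corrects faulty attachments of chromosomes. Its level was 30.4, 28.7 and 27.6 CPM on 2-kPa elastic gels and 37.1, 34.8 and 38.3 CPM at 20 kPa. It was 23.7, 22.3 and 22.6 CPM on 2-kPa viscoelastic gels, and 27.1, 20.8 and 24.4 CPM at 20 kPa. At 2 kPa the lowest elastic sample (27.6 CPM) and the highest viscoelastic sample (23.7 CPM) were further apart than for Aurka. It fell by 20.9% there (edgeR adjusted p = 0.0096) and fell by 34.5% at 20 kPa (adjusted p = 0.000156), and it rose 1.27-fold with stiffness on elastic gels (adjusted p = 0.0105).

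Bub1 (chr2:127801122-127831865, minus strand), a kinase of the spindle checkpoint, had the largest decrease of the 10 between gel types at 20 kPa. Its level was 42.4, 43.2 and 41.5 CPM on 2-kPa elastic gels and 51.7, 56.2 and 62.6 CPM at 20 kPa. It was 35.7, 27.6 and 30.4 CPM on 2-kPa viscoelastic gels and 35.4, 26.4 and 33.7 CPM at 20 kPa. The viscoelastic samples of both stiffnesses thus covered almost the same range. Bub1 fell by 44% at 20 kPa (log2 ratio -0.84 ± 0.107, edgeR adjusted p = 0.00013) and fell by 26.2% at 2 kPa (-0.44 ± 0.107, adjusted p = 0.0102). Only 1.41% of tested genes had a lower log2 ratio at 20 kPa. With stiffness on elastic gels it rose 1.34-fold (adjusted p = 0.0148).

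The proliferation markers were the most abundant members by read count. Mki67 (chr7:135689784-135716361, minus strand) encodes Ki-67, a protein of the surface of mitotic chromosomes that is used to stain cycling cells. It had 466.5, 486 and 426.6 CPM on 2-kPa elastic gels and 554.6, 520.8 and 670.2 CPM at 20 kPa. On viscoelastic gels it had 349.9, 309.1 and 325.7 CPM at 2 kPa and 363.7, 278.6 and 376.1 CPM at 20 kPa. The highest viscoelastic sample (376.1 CPM) was below the lowest elastic one (426.6 CPM). Mki67 fell by 28.6% between gel types at 2 kPa (log2 ratio -0.49 ± 0.111, edgeR adjusted p = 0.00709), the largest decrease of the 10 there, and fell by 41.7% at 20 kPa (-0.78 ± 0.111, adjusted p = 0.000213). On elastic gels its 1.27-fold ratio with stiffness did not pass (adjusted p = 0.0534), with an SD of 78.3 CPM in the 20 kPa Elastic group. It passed under 7 of 8 other settings of the analysis, and in 3 of 12 fits that left out 1 sample (log2 ratio 0.23 to 0.41, adjusted p from 0.0185 to 0.251). The lowest of these ratios came without replicate 3 of 20 kPa Elastic.

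Top2a (chr11:98992943-99024189, minus strand) encodes topoisomerase II alpha, which untangles sister chromatids. Its level was 413.8, 404.6 and 390.8 CPM on 2-kPa elastic gels and 468.8, 476 and 509 CPM at 20 kPa. It was 322.1, 277.9 and 294.4 CPM on 2-kPa viscoelastic gels and 323.4, 240.9 and 324.5 CPM at 20 kPa. The means of the 2 viscoelastic groups, 298.1 and 296.3 CPM, were almost equal. Top2a fell by 26% between gel types at 2 kPa (edgeR adjusted p = 0.00598) and fell by 38.9% at 20 kPa (adjusted p = 0.000172). Its 1.2-fold ratio with stiffness on elastic gels was the smallest of the members and did not pass (adjusted p = 0.0802).

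**Figure D3:**
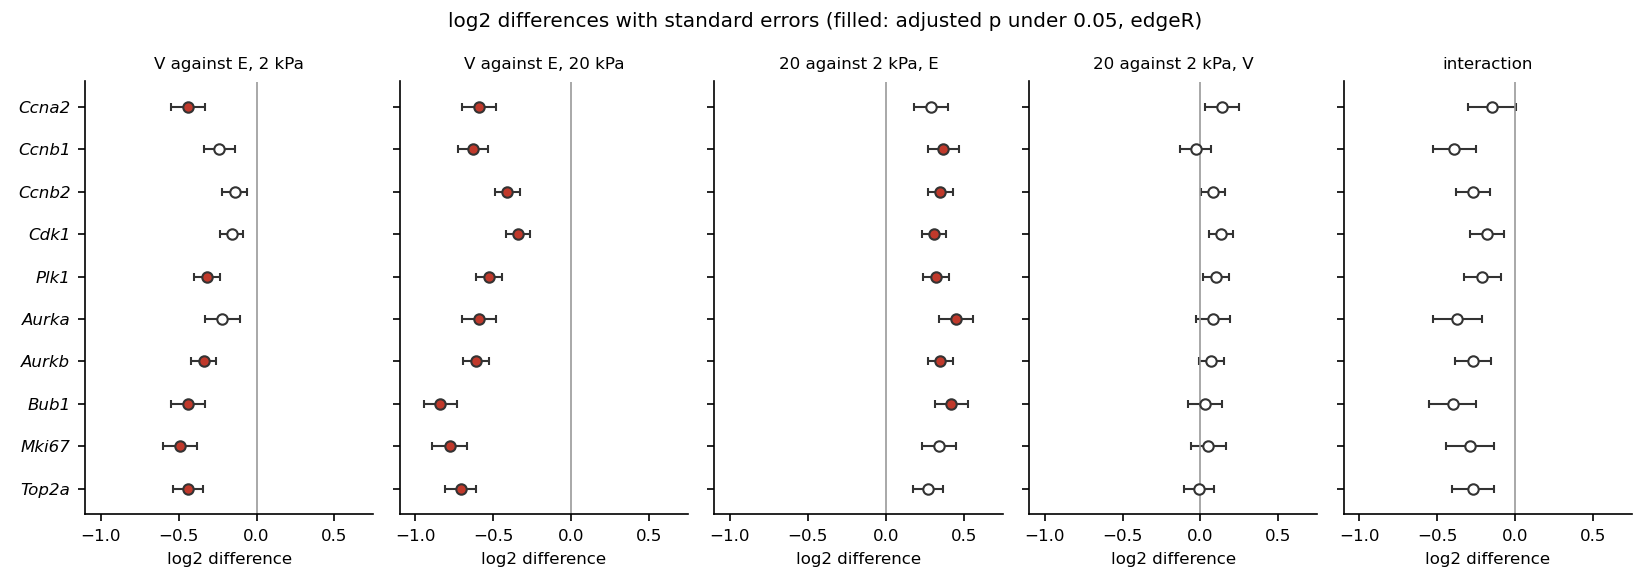
log2 ratios of the 10 genes (points) with their standard errors (bars) in the 4 comparisons and for the interaction, with E for elastic and V for viscoelastic gels. Filled points passed an adjusted p of 0.05 (edgeR): 6 at 2 kPa and 10 at 20 kPa between gel types, 7 for stiffness on elastic gels, and none in the other 2 panels.

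Several of these counts changed when 1 sample was left out, which also leaves a group with fewer samples. The 10 decreases at 20 kPa stayed called without any 1 of the 12 samples. The 7 increases on elastic gels fell to 2 without replicate 3 of 2 kPa Elastic or without replicate 3 of 20 kPa Elastic, and to 4 without replicate 1 or replicate 2 of 2 kPa Elastic. Without replicate 1 of 2 kPa Elastic, Aurka, Bub1 and Ccnb1 kept log2 ratios of 0.44, 0.42 and 0.37 (edgeR adjusted p = 0.052, 0.0517 and 0.0628). Without replicate 3 of 20 kPa Elastic their ratios were 0.37, 0.35 and 0.3. At 2 kPa the count of 6 went to 4 without replicate 1 of 2 kPa Elastic, with Plk1 and Aurkb lost, and without replicate 3 of 2 kPa Viscoelastic, with Ccna2 and Plk1 lost.

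Whether stiffness acted differently on the 2 kinds of gel was tested as an interaction, where the log2 ratio between stiffnesses seen with elastic gels is subtracted from the one seen with viscoelastic gels. The interaction was negative for all 10 genes, from -0.4 (Bub1) to -0.15 (Ccna2), with a median of -0.27 beside 0.02 for all tested genes. None passed the adjusted threshold (edgeR), 5 had an unadjusted p under 0.05, and DESeq2 called none, whereas 3.12% of tested genes were called with a negative interaction and 4.45% with a positive one. The 5 were Ccnb1 (-0.39 ± 0.139, adjusted p = 0.102), Bub1 (-0.4 ± 0.151, adjusted p = 0.126), Ccnb2 (adjusted p = 0.162), Aurka (adjusted p = 0.169) and Aurkb (adjusted p = 0.174). The stiffness ratios of the mitotic genes were therefore not shown to differ between gel types. Without replicate 2 of 20 kPa Viscoelastic, the low library with the high mitochondrial share, all 10 stiffness ratios on viscoelastic gels were positive (log2 0.07 to 0.27, none called) and the median interaction was -0.17. The count of up-regulated members on elastic gels was 10 without it, and the decreases between gel types at 20 kPa had a median of -0.48.

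The 10 genes moved together from sample to sample. Over the 45 pairs of members, Pearson's r of log2 CPM across the 12 samples ran from 0.886 to 0.991 with a median of 0.947. After the group means were removed, it still ran from 0.525 to 0.971 with a median of 0.805 and no negative pair. Within a sample the genes share library, depth and scaling, so these values are a description. Among all other tested genes, the 10 most like the mean of the members over the 12 samples were Racgap1, Hmmr, Kif23, Diaph3, Blm, Rrm1, Kif20b, Kif18b, Parpbp and Arhgap11a, with r from 0.993 down to 0.985. Racgap1 and Kif23 form the centralspindlin complex of the dividing cell. Racgap1 averaged 86.6 ± 1.2, 108.6 ± 1.99, 69.9 ± 4.09 and 71.7 ± 11.3 CPM (SD, n = 3) on 2-kPa elastic, 20-kPa elastic, 2-kPa viscoelastic and 20-kPa viscoelastic gels. Hmmr, a microtubule-associated protein of the spindle, averaged 82.7 ± 2.28, 110.7 ± 7.09, 67.6 ± 4.04 and 68.6 ± 9.93 CPM in the same order. These genes were picked for their likeness over the same samples, so their order of levels follows from the choice.

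Other genes of mitosis were taken as 6 lists with 85 genes. Between gel types at 2 kPa, 31 of the 85 were called lower and 1 higher, beside 11.1% and 8.77% of all tested genes. At 20 kPa 56 were called lower and 6 higher, beside 16.1% and 17.4% of all tested genes. With stiffness on elastic gels, 39 were called higher and none lower, beside 6.81% and 7.14% of tested genes. On viscoelastic gels 2 were called higher and none lower, a share close to the 1.58% and 0.695% over all tested genes. DESeq2 called 45 and 4 of them higher in these 2 comparisons and none lower, and no decrease reached an unadjusted p under 0.05 by edgeR either. On viscoelastic gels 12 increases of the 85 genes did, beside 2768 of the 14542 tested genes in either direction. Their median log2 ratios were -0.22, -0.41, 0.26 and 0.06 in this order.

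Regulators of Cdk1 were called lower in 5 of 13 at 2 kPa and 9 of 13 at 20 kPa between gel types, and higher in 5 with stiffness on elastic gels. Over all tested genes the shares in this order were 11.1%, 16.1% and 6.81%. Cdc25b, a phosphatase that activates Cdk1, went from 32.3 ± 1.11 to 23.7 ± 1.92 CPM between gel types at 2 kPa and from 34.9 ± 1.17 to 22.2 ± 2.38 CPM at 20 kPa (SD, n = 3; log2 ratios -0.45 and -0.66). Ccnf, the cyclin F subunit of a ubiquitin ligase, fell in both comparisons as well (-0.39 and -0.64). On elastic gels Cdc25c, another phosphatase of this family, and Cks1b, a small protein that binds Cdk1, rose with stiffness (0.35 and 0.34). On viscoelastic gels Arpp19, an inhibitor of the phosphatase PP2A in mitosis, was the only one called (0.29, edgeR adjusted p = 0.0453).

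Checkpoint and kinetochore genes were called lower in 5 of 18 at 2 kPa and 13 of 18 at 20 kPa, and 12 were called higher with stiffness on elastic gels. Beside these counts stand 11.1%, 16.1% and 6.81% of all tested genes. At 2 kPa those called lower included Cenpf, a kinetochore protein, with 127.8 ± 6.46 CPM on elastic and 91 ± 7.83 CPM on viscoelastic gels (SD, n = 3; log2 ratio -0.49), and Ttk, the kinase that starts the checkpoint (-0.32). At 20 kPa Bub1b, which encodes the checkpoint protein BubR1, went from 80.7 ± 3 to 51.3 ± 6.18 CPM (-0.65). Cenpa, the histone H3 variant of the centromere, rose from 32.6 ± 1.1 to 42.5 ± 1.27 CPM with stiffness on elastic gels (0.38) and at 20 kPa it was lower on the viscoelastic substrate (-0.55). For Cenpa the interaction itself passed (-0.38 ± 0.101, edgeR adjusted p = 0.0346), as it did for Ska3, a spindle and kinetochore protein (-0.46, adjusted p = 0.0465). Bub1b passed as well (-0.37, adjusted p = 0.0478), so that 3 of the 18 were called, beside 3.12% of all tested genes with a negative interaction.

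Partners of the Aurora kinases were called lower in 3 of 6 at 2 kPa and 6 of 6 at 20 kPa, and higher in 6 of 6 with stiffness on elastic gels. Among all tested genes 11.1%, 16.1% and 6.81% were called in these directions. Tpx2, the activator of Aurora A on the spindle, went from 142.9 ± 4.05 to 192.1 ± 10 CPM with stiffness on elastic gels (log2 ratio 0.43) and to 129.5 ± 16.4 CPM on 20-kPa viscoelastic gels (-0.57 between gel types). Its interaction passed too (-0.39 ± 0.111, edgeR adjusted p = 0.044). Incenp, the scaffold of the passenger complex, fell from 84.2 ± 4.69 to 55.5 ± 5.82 CPM between gel types at 20 kPa (-0.6). Birc5 (survivin), of the same complex, rose with stiffness on elastic gels (0.39) and did not pass on viscoelastic gels (0.21, adjusted p = 0.176).

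Condensin and cytokinesis genes were called lower in 10 of 15 at 2 kPa and 14 of 15 at 20 kPa, and higher in 11 with stiffness on elastic gels. All tested genes had shares of 11.1%, 16.1% and 6.81% there. Ncapg2, a condensin II subunit, fell from 76.4 ± 1.29 to 50 ± 7.16 CPM between gel types at 2 kPa (log2 ratio -0.61). Anln (anillin), a scaffold of the cleavage furrow, fell from 286.8 ± 22.9 to 157.5 ± 22.9 CPM at 20 kPa (-0.86). Cep55, needed for the final cut between daughter cells, rose from 24.1 ± 1.05 to 34 ± 3.08 CPM with stiffness on elastic gels (0.49).

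Of 18 genes of the anaphase-promoting complex and its regulators, 3 were called lower at 2 kPa between gel types, where 11.1% of all tested genes were. At 20 kPa 7 were called lower and 4 higher, and the share called higher was close to the 17.4% of all tested genes (16.1% were called lower). Those lower at 20 kPa included Cdc20, the mitotic activator of the complex (82.8 ± 3.95 against 57.3 ± 6.56 CPM, log2 ratio -0.53), and Espl1, the protease separase (-0.79). Those higher included Anapc10, a core subunit (14.3 ± 0.544 against 20.2 ± 2.42 CPM, 0.5), and Pttg1, the separase inhibitor securin (0.42). With stiffness on elastic gels 3 were called higher, beside 6.81% of all tested genes. Among them were Cdc20 (0.42) and Fbxo5, an inhibitor of the complex (0.53). The subunit Anapc11 was the only 1 called on viscoelastic gels (0.29, edgeR adjusted p = 0.041), and its interaction was positive (0.34, adjusted p = 0.0442).

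Among 15 transcription factors and cofactors that act on these promoters, 5 were called lower and 1 higher at 2 kPa between gel types, and 7 lower and 2 higher at 20 kPa. The counts called higher were below the shares over all tested genes (8.77% and 17.4%), and those called lower above them (11.1% and 16.1%). Foxm1, an activator of G2 and mitotic genes, went from 56.4 ± 4.07 to 40.1 ± 5.45 CPM at 2 kPa (log2 ratio -0.49) and from 68.3 ± 4.46 to 39.8 ± 6.93 CPM at 20 kPa (-0.78). Subunits of the MuvB core disagreed between gel types at 20 kPa. Lin37 and Lin52 were called higher on viscoelastic gels (0.36 and 0.38), Lin9 and Lin54 were called lower (-0.54 and -0.41), and Rbbp4 was not called (-0.05). Nfyb, a subunit of NF-Y, was higher on viscoelastic gels at 2 kPa (0.28). With stiffness on elastic gels 2 were called higher, Lin9 (0.33) and Nfyb (0.23), beside 6.81% of all tested genes.

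Genes of S phase, which come before mitosis in the cycle, were called lower in 8 of 17 at 2 kPa and 14 of 17 at 20 kPa between gel types, and higher in 13 with stiffness on elastic gels. The shares over all tested genes in these comparisons were 11.1%, 16.1% and 6.81%. None of the 17 was called with stiffness on viscoelastic gels by edgeR or DESeq2, where 3 had an unadjusted p under 0.05 (edgeR). All 17 ratios there were positive (log2 0.03 to 0.21), as were 7541 of the 14542 tested genes. A negative interaction was called for 1 of the 17, beside 3.12% of all tested genes. Mcm5, a subunit of the replicative helicase, fell from 55.6 ± 3.59 to 39.9 ± 2.1 CPM at 2 kPa (log2 ratio -0.48). Rrm2, the small subunit of ribonucleotide reductase, rose from 92.1 ± 1.49 to 133.3 ± 11.8 CPM with stiffness on elastic gels (0.53).

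Counts over the 102 genes of the 7 lists also changed when 1 sample was left out. Between gel types at 20 kPa 76 were called, and 71 to 79 without any 1 sample. With stiffness on elastic gels 52 were called, and 33 without replicate 1 or replicate 2 of 2 kPa Elastic, 27 without its replicate 3 and 21 without replicate 3 of 20 kPa Elastic. Between gel types at 2 kPa the count of 40 went to 23 or 25 without replicate 1 or replicate 2 of 2 kPa Elastic and to 20 without replicate 3 of 2 kPa Viscoelastic. The 2 calls on viscoelastic gels became 0 to 4 and the 6 of the interaction 0 to 9, so that the calls of Arpp19, Anapc11, Cenpa, Ska3, Bub1b and Tpx2 there did not hold without some single samples. Without replicate 2 of 20 kPa Viscoelastic the counts were 57 and 71 between gel types at 2 and 20 kPa, 59 and 4 with stiffness on elastic and viscoelastic gels, and 1 for the interaction.

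**Figure D4:**
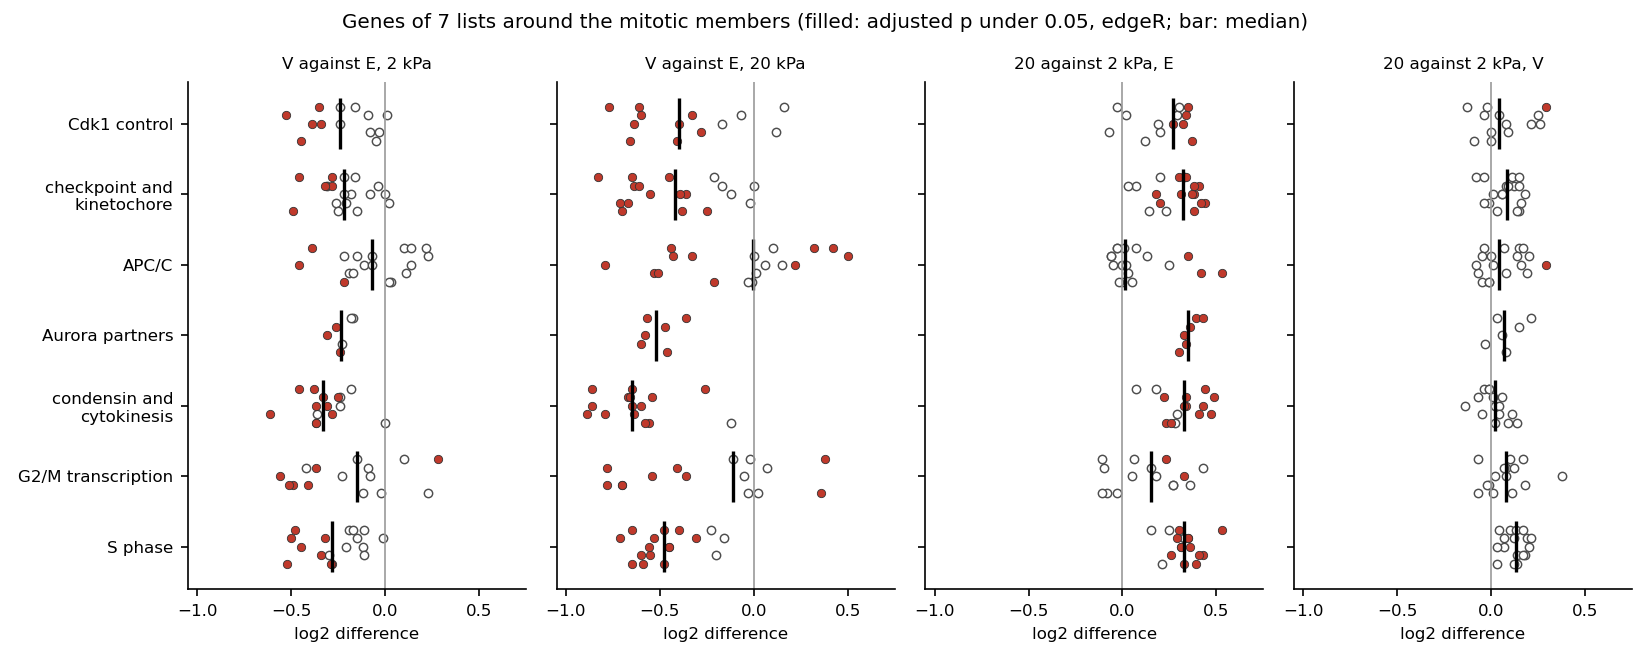
log2 ratios of the genes of 7 lists (points, filled where the adjusted p was under 0.05 by edgeR) with the median of each list (bar), in the 4 comparisons, with E for elastic and V for viscoelastic gels. Condensin and Aurora partner genes lie below 0 between gel types and above 0 with stiffness on elastic gels, and the APC/C list spreads to both sides at 20 kPa.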

How the data were processed

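RNA-seq of 12 samples was used, 3 per group. The authors used Trimmomatic for trimming, STAR for alignment to mm10, and featureCounts with GENCODE genes for counting. The deposited table holds raw counts, not normalized. The annotation release, the strand setting and the treatment of reads with several matches are not given in the sources used here. Genes were taken by symbol, and positions, exon lengths and GC content came from GENCODE vM21 (94.9% of tested genes matched).

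The quasi-likelihood test of edgeR 4.0.16 (R 4.3.3) was applied to the counts, with TMM scaling and filterByExpr (minimum count 10, minimum total 15). One fit with a coefficient per group covered all 12 samples, and its biological coefficient of variation was 7.5%. P-values were adjusted by Benjamini-Hochberg over all 14542 tested genes, and genes with an adjusted p under 0.05 were called higher or lower, or up- or down-regulated. CPM values are TMM-scaled, and correlations used log2 CPM with a prior count of 2. The count test was tested on simulated data first.

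The members, lists and markers were chosen with earlier results of these data known. Named genes of a list were at most 2 called in each direction with the lowest adjusted p, or the gene with the lowest p where none was called, and examples of these are given. Alternatives were DESeq2 1.42.0, other scalings, no filter, a stricter threshold, a length and GC correction, a replicate block, fits of 2 groups, and leaving out each sample.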

Additional observations from a re-analysis of the deposited data

How the results depend on the processing

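Called members kept their direction under every alternative. The 10 decreases between gel types at 20 kPa stayed called under all alternatives. At an adjusted p under 0.01 the count of members was 3 for gel type at 2 kPa and 1 for stiffness on elastic gels. With no filter on low counts the interaction passed for 2 members, Ccnb1 (log2 -0.4, edgeR adjusted p = 0.0217) and Bub1 (-0.41, adjusted p = 0.029). The cause was not tested. Leaving out 1 sample gave counts from 2 to 10 for stiffness on elastic gels, from 4 to 7 for gel type at 2 kPa, and from 0 to 1 for the interaction (Ccnb1 without replicate 3 of 2 kPa Viscoelastic, -0.5, adjusted p = 0.023). Ccnb2 was called at 2 kPa only with the length and GC correction (-0.28, adjusted p = 0.0227). Mki67, Ccna2 and Top2a gained a call for stiffness on elastic gels in several fits, among them that of the 2 groups alone (adjusted p = 0.0267, 0.00379 and 0.00979). DESeq2 called 6, 10, 9 and 0 members in the 4 comparisons.

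Signs turned only among the uncalled stiffness ratios on viscoelastic gels, which lay near 0. With the length and GC correction these were -0.0063 for Bub1, -0.035 for Ccnb2 and 0.0064 for Top2a, and with the replicate block added -0.008, -0.037 and 0.00062. Leaving out 1 sample gave ranges of -0.014 to 0.21 for Aurka, -0.019 to 0.17 for Aurkb, -0.056 to 0.15 for Bub1, -0.13 to 0.069 for Ccnb1, -0.031 to 0.17 for Mki67 and -0.079 to 0.12 for Top2a.

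The labels do not say whether same-numbered samples were prepared together. Their deviations from the group means correlated at -0.16 to 0.308, with both signs among the pairs. Between stiffnesses on viscoelastic gels all were positive (0.0483 to 0.308). Deviations within groups of 3 samples cannot decide whether the samples were paired. With the replicate block 6, 10, 7 and 0 members were called in the 4 comparisons and 0 for the interaction, as without it. Of 102 genes in the 7 lists, 40 were called at 2 kPa between gel types (19 to 49 over the other settings), 76 at 20 kPa (68 to 81), 52 with stiffness on elastic gels (22 to 64), 2 on viscoelastic gels (0 to 4) and 6 for the interaction (0 to 18). For the interaction DESeq2 called 16 of them, the fit with no filter 18, the length and GC correction 13 and the replicate block 3. Scaling by total counts moved the split of all calls at 2 kPa from 1275 higher and 1617 lower to 1675 and 1258, and at 20 kPa from 2527 and 2339 to 2937 and 1901, and the counts of members called stayed at 6 and 10. With 3 samples per group, the members' log2 differences with stiffness on viscoelastic gels ran from -0.03 to 0.14, with standard errors of 0.0764 to 0.111.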
